A study of Mus musculus with 6 samples.

Results

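The genes along mouse chromosome 12 were followed in fibroblasts with and without a hairpin against ARF. They were the 493 genes of the chromosome with a mean of at least 1 CPM (counts-per-million, scaled for library size) over 6 libraries, of 13733 genes at that level on all chromosomes. The imprinted domain from Dlk1 to Dio3 (chr12:109452823-110281097, build GRCm38) was left out with its 9 genes at that level. The chromosome was picked on measured values: its median fold change was the highest of any chromosome in this same comparison. All differences between the groups are therefore given as descriptions, and no gene or window of the chromosome is offered as tested evidence.

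All 6 samples were mouse embryonic fibroblasts of a line described as p53-deleted, although the genotype label reads WT. Groups were formed from the titles: 3 samples received a non-targeting control hairpin by lentivirus (shNT) and 3 a hairpin against ARF (shARF), and all titles carry the tag neo. The cell line label is the same for both groups and is followed here. The titles call the samples biological replicates but do not say whether they were separate cultures or infections, nor whether both groups came from 1 culture, so the spread between samples may be technical. Total RNA depleted of ribosomal RNA was sequenced.

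ARF is a tumour suppressor read from an alternative reading frame of Cdkn2a. It binds the ubiquitin ligase Mdm2 and so protects p53, and it has further partners in the nucleolus. Mouse chromosome 12 has its centromere at the end where coordinates begin, and the immunoglobulin heavy chain genes lie near its far end. Apart from such clusters, neighbouring genes on a mouse chromosome serve mostly unrelated functions, so the members are described below first by position and then by role.

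Promoter sequences of the members with the largest changes are shown first, because base composition is a property that the rule did not use. Of the 493 members, 369 had a promoter in the RefSeq table (build GRCm38.p6). Each window holds up to 250 bases before the RefSeq start, 5′ to 3′ on the gene's strand, and stops where the GENCODE transcript begins. Capitals mark matches to the motifs searched. At 5 CPM or more, Gsc and Crip2 had the largest rises, and Nova1 and Clmn the largest falls among genes with a promoter in the table.
Gsc, chr12:104473331-104473486, minus strand: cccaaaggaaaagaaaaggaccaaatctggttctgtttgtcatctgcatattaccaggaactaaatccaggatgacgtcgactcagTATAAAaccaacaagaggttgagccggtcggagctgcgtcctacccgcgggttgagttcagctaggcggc
Crip2, chr12:113139986-113140235, plus strand: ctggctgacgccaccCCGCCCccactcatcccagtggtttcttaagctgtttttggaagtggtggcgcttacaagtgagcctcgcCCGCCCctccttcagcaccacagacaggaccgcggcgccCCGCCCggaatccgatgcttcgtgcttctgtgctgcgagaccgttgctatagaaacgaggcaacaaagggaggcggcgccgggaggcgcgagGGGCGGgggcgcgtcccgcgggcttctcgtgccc
Nova1, chr12:46818930-46819017, minus strand: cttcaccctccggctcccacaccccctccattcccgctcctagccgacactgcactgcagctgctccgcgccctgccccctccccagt
Clmn, chr12:104865077-104865326, minus strand: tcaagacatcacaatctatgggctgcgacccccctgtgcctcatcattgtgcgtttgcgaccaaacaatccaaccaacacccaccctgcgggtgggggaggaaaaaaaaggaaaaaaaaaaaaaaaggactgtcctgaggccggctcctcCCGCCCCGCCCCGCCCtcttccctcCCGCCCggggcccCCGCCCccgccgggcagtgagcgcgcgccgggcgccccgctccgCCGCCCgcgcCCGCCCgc
The motifs searched on both strands were the TATA box (TATAAA), the CCAAT box (CCAAT), the GC box (GGGCGG), the E-box (CACGTG) and the AP-1 site (TGACTCA). The printed window of Gsc held 1 TATA box whose first base lay at -164 from the RefSeq start. Crip2 held 4 GC boxes, with first bases at -235, -165, -126 and -34. Clmn held 7, at -100, -95, -90, -75, -62, -18 and -8, of which the first 3 overlap one another. No match lay in the 88 bases printed for Nova1. A risen and a fallen gene thus both carried several GC boxes.

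Over the 250 bases before the start, a GC box was found in 59.9% of the 369 member promoters and in 32.7% of all 32851 promoters in the table, which include genes silent in these cells. The TATA box was found in 5.96% of member promoters against 12.4% of all, the CCAAT box in 37.7% against 33.8%, the E-box in 7.32% against 6.02% and the AP-1 site in 2.71% against 4.46%. Member promoters had a median of 18 CpG dinucleotides, and all promoters a median of 6. Between the number of CpG and the log2 fold change, Pearson's correlation was -0.05 and Spearman's 0.01 over 369 genes, all measured in the same libraries. The median was 19 CpG for members before 40 Mb and 18 for those beyond 50 Mb.

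The median member was 1.26-fold higher in shARF, a log2 fold change of 0.33 with quartiles of 0.01 and 0.60, and 371 of 493 members (75.3%) lay above 0. Genes off chromosome 12 at the same level had a median of 0.00 with quartiles of -0.31 and 0.29 (13220 genes). The quasi-likelihood test of edgeR, fitted on all genes with an adjusted p under 0.05, called 282 members higher and 60 lower, and 151 were not called. Over all 17128 genes tested it called 28.8% higher and 27.7% lower, and over the 13725 of them at 1 CPM or more 32.9% higher and 30.5% lower. The members' 57.2% higher and 12.2% lower belong to the contrast that chose the chromosome, and nothing is read from them. In cultured cells taken in bulk, fewer cells of a kind and less RNA per cell cannot be told apart.

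The change was small for most members and was seen over the whole range of fold changes. Within 1.5-fold of no change lay 335 members, while 40 members were called at least 2-fold higher and 19 at least 2-fold lower. From the 10th to the 80th percentile, the fold changes of members exceeded those of genes off the chromosome by between 0.30 and 0.38 on the log2 scale, and at the 90th percentile by 0.22. The median standard error of a member's log2 fold change was 0.07. The whole distribution thus sat higher, with the narrowest gap among the most risen genes.

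**Figure D1:**
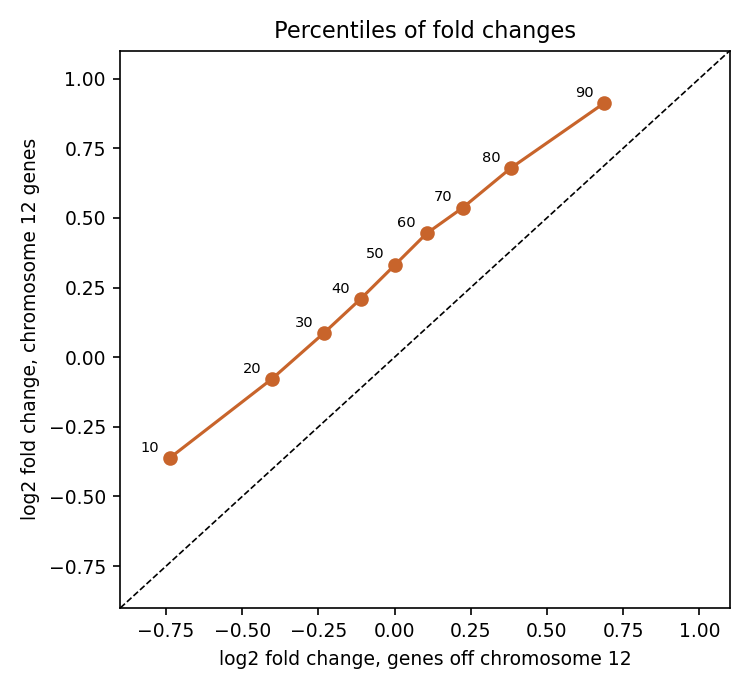
Percentiles of the log2 fold change (shARF over shNT) of the 493 chromosome 12 genes on the vertical axis against those of 13220 genes off the chromosome on the horizontal axis, each point labelled with its percentile; the dashed line marks equal values. All 9 points lie above the line, by 0.22 at the 90th percentile and by up to 0.38 at the 10th.

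All 3 libraries of each group shared the shift. The median deviation of the members from their 6-library mean, less that of genes off the chromosome, was -0.15, -0.16 and -0.17 in shNT replicates 1 to 3 and 0.14, 0.15 and 0.17 in shARF replicates 1 to 3, on the log2 scale. The groups did not overlap. Members took 4.25%, 4.33% and 4.41% of the autosomal counts in shNT and 5.42%, 5.37% and 5.42% in shARF, a ratio of means of 1.25. Much of that share was 7SL RNA, the RNA of the signal recognition particle, which was read from the near-identical copies Rn7s1 and Rn7s2 and from the overlapping Gm47299, named after their values were seen. Without these 3 genes the shares were 2.23% ± 0.02 in shNT and 2.77% ± 0.02 in shARF (SD, n = 3), again a ratio of 1.25.

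Gene by gene, all 3 shARF libraries lay above all 3 shNT libraries for 304 members and below them for 69. Among genes at 1 CPM or more on all chromosomes these shares were 36.3% and 34.2%. No member had a group without counts, but 30 members had a group mean under 1 CPM, the shNT mean in 15 and the shARF mean in 15, and so were members only through the group where they were high. Members just inside the level of 1 CPM were Cdkl1, a kinase gene, at 0.737 ± 0.11 CPM in shNT and 1.27 ± 0.08 in shARF, and the pseudogene Gm1818, at 0.551 ± 0.95 and 1.47 ± 1.29 (SD, n = 3). Just outside it lay A530016L24Rik, at 1.19 ± 0.17 and 0.735 ± 0.07 CPM, and Gm19605, at 0.953 ± 0.12 and 0.989 ± 0.17 CPM. Every shARF library lay above every shNT library for Cdkl1 and below for A530016L24Rik, the groups overlapped for the other genes, and Gm1818 was at 0 in 3 of the 6 libraries.

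**Figure D2:**
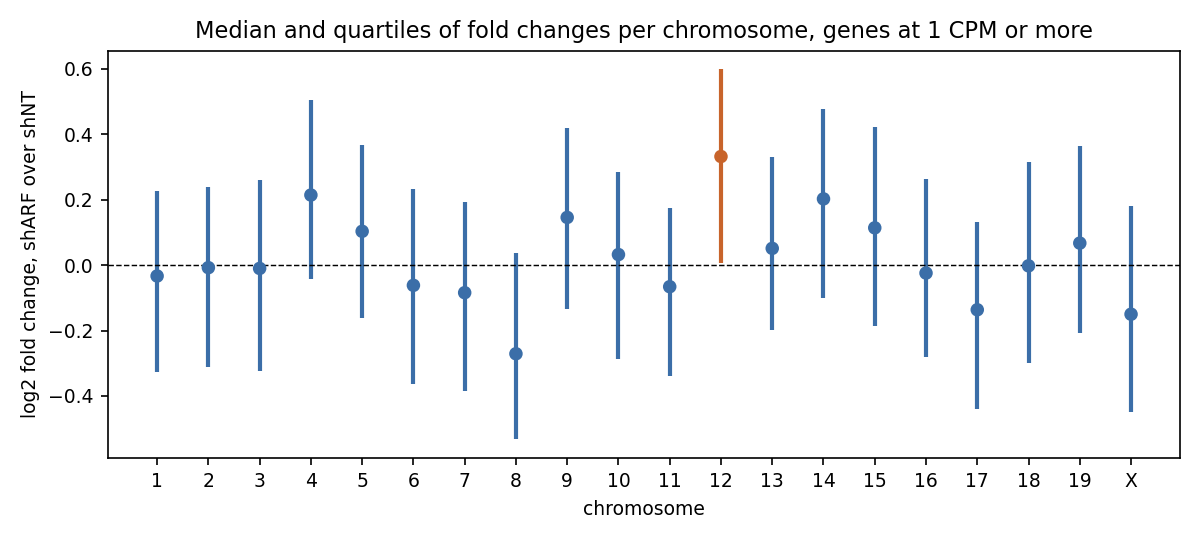
Median (point) and quartiles (line) of the log2 fold change, shARF over shNT, for genes at 1 CPM or more on each autosome and X. Chromosome 12, in orange, has the highest median at 0.33, which is the reason it was picked; chromosome 4 follows at 0.21 and chromosome 8 is lowest at -0.27.

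Along the chromosome the higher values began near the middle. The 4 windows of 10 Mb before 40 Mb had medians of 0.06, 0.17, 0.11 and 0.18 over 31, 31, 29 and 32 members. The window from 40 to 50 Mb had a median of 0.35, but only 18 members and quartiles of -0.48 and 0.80. From 50 Mb to the end the 7 windows had medians of 0.45, 0.33, 0.42, 0.41, 0.33, 0.46 and 0.44, over 55, 31, 54, 75, 18, 60 and 59 members. Every one of the 7 exceeded the highest median of the 4 windows before 40 Mb. Neighbouring genes of 1 family count as separate members, as Srp54a (0.64), Srp54b (0.66) and Srp54c (0.71) do in the window from 50 to 60 Mb. Whether such genes share reads was not tested.

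**Figure D3:**
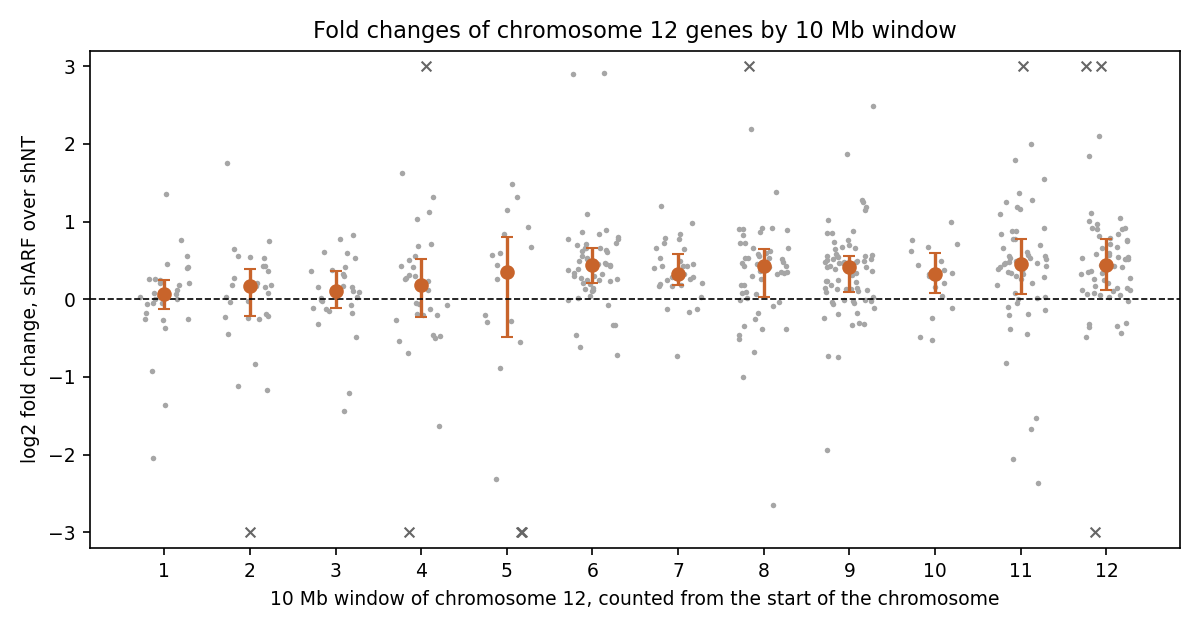
Log2 fold change of each of the 493 genes (grey points, spread sideways for legibility) by 10 Mb window of chromosome 12, with the window's median (orange point) and quartiles (orange bars); crosses at the edges stand for 10 genes beyond 3 log2 units. Medians are 0.06 to 0.18 in windows 1 to 4 and 0.33 to 0.46 in windows 6 to 12, and single genes lie on both sides of 0 in all windows.

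Split at those positions, a division made after the windows were seen, the median log2 fold change was 0.11 over the 123 members before 40 Mb, whereas it was 0.42 over the 352 beyond 50 Mb. The medians differed by 0.31. Of the 123, 50 (40.7%) were called higher and 23 (18.7%) lower. Of the 352, 224 (63.6%) were called higher and 31 (8.81%) lower. Among all genes at 1 CPM or more these shares were 32.9% and 30.5%. Members above 0 made up 60.2% before 40 Mb and 81.5% beyond 50 Mb. The genes beyond 50 Mb thus held most of the shift, and 256 of the 352 lay between no change and 2-fold higher.

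The same division was present in each library. Beyond 50 Mb the median deviations were -0.19, -0.18 and -0.19 in shNT replicates 1 to 3 and 0.20, 0.19 and 0.20 in shARF. Before 40 Mb they were -0.04, -0.07 and -0.07 against 0.05, 0.06 and 0.05. In 11 of 12 windows every shARF library lay above every shNT library. The exception was the window from 40 to 50 Mb, where shARF replicate 1 (-0.06) lay below shNT replicate 3 (-0.003).

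**Figure D4:**
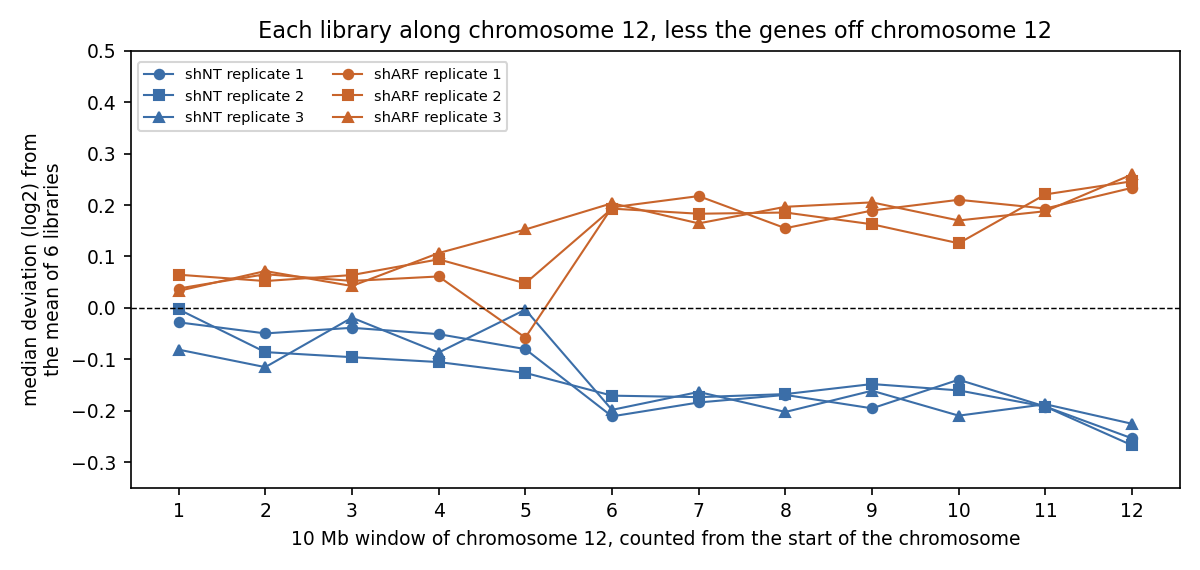
Median deviation of chromosome 12 genes from their 6-library mean, less that of genes off the chromosome (log2, vertical axis), in each 10 Mb window (horizontal axis), with 1 line per library. The shARF and shNT lines lie apart in 11 of 12 windows and are closest in windows 1 to 5; from window 6 on all shARF points lie above 0.12 and all shNT points below -0.13.

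Windows of 5 Mb gave 23 with at least 5 members, of which 20 had a median above that of genes off the chromosome. The lowest was -0.12, from 25 to 30 Mb, and the highest 0.53, from 70 to 75 Mb. At this size the 2 ends were not fully apart. The window from 80 to 85 Mb had a median of 0.20 over 46 members, below the 0.25 over 22 members from 30 to 35 Mb. On the other autosomes, 222 windows of 10 Mb with at least 15 genes had medians from -0.36 to 0.64, and 9 of them reached the lowest median found beyond 50 Mb on chromosome 12 (0.33). Between the fold changes of adjacent members Spearman's correlation was 0.181, and on the other 18 autosomes it was -0.0592 to 0.176. By Pearson's correlation chromosome 12, at 0.170, lay below chromosomes 11 (0.252) and 5 (0.177), so it did not stand out by both measures. Less the median off the chromosome, the window from 30 to 40 Mb moved from 0.18 to 0.06 without shARF replicate 3 and to 0.13 without shNT replicate 3. With other member sets this window rose, to 0.24 at 0.5 CPM or more, 0.27 at 5 CPM or more and 0.26 for protein-coding members. The windows from 10 to 20 and from 20 to 30 Mb moved from 0.17 and 0.11 to 0.11 and 0.07 without shARF replicate 1, and the window from 60 to 70 Mb from 0.33 to 0.42 without shARF replicate 2. The window from 40 to 50 Mb moved from 0.35 to 0.17 at 0.5 CPM or more. It rose to 0.51 at 5 CPM or more and to 0.50 for protein-coding members, so where the higher values begin is not sharply placed.

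The shift was seen in protein-coding members, while pseudogenes had none on balance. Less the median of the same class off the chromosome, the median log2 fold change was 0.38 for 407 protein-coding members, 0.39 for 42 other non-pseudogene members and -0.01 for 44 pseudogenes. By expression level it was 0.27 in the lowest group of equal size, under 10.3 CPM, 0.36 in the middle group and 0.38 in the highest, above 42.6 CPM. By exon length it was 0.27, 0.41 and 0.32 from the shortest to the longest group. The classes differed in level as well, and the differences between them were not tested. All 233 immunoglobulin gene segments in the table lay under 1 CPM.

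To show what a typical member looked like, 1 gene near the median of each window was taken. Near the start, Pum2, an RNA-binding repressor of translation, was 220, 223 and 208 CPM in shNT and 219, 231 and 229 in shARF (log2 fold change 0.06 ± 0.03, standard error). Dld, a subunit of mitochondrial dehydrogenase complexes at 31.3 Mb, was 100.3, 98.7 and 97.9 CPM in shNT and 112, 119 and 118 in shARF (0.23 ± 0.03). Nemf, of the ribosome quality control pathway, at 69.3 Mb, was 47.02, 45.3 and 44.9 CPM against 55.0, 57.2 and 60.0 (0.33 ± 0.05). The libraries overlapped for Pum2, whose value was -0.03 with library sizes alone as scaling, and were apart for Dld and Nemf.

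Farther along, Dlst, of the citric acid cycle, was 65.0, 71.4 and 61.5 CPM in shNT and 86.1, 87.8 and 90.6 in shARF (0.42 ± 0.06). Ppp2r5c, a regulatory subunit of phosphatase 2A at 110.447 Mb, was 92.2, 96.4 and 92.7 CPM against 124, 122 and 133 (0.43 ± 0.04). In both, every shARF library was above every shNT library. The log2 fold changes of Rdh11 (0.43), Dnajb9 (0.44) and Trip11 (0.46) were of the same order, as was that of Gemin2 (0.45), whose call was lost without any 1 of 5 libraries (0.37 to 0.48). Ywhaq (0.12) was called higher, but not with library sizes alone as scaling (0.03), and neither Gen1 (0.17) nor Sel1l (0.33) was called.

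Of the 493 members, 224 were in 11 role lists and had a median of 0.42, against 0.26 for the 269 in none. Of the 10 lists with more than 1 member, 9 had a median above 0.30, and in all 10 the median was higher beyond 50 Mb than before 40 Mb. Beside the calls in each list stand those of all genes at 1 CPM or more, 32.9% higher and 30.5% lower. Among 36 transcription factors and chromatin regulators, 24 were called higher and 8 lower, with a median of 0.60. The 15 before 40 Mb had a median of 0.01, with 7 higher and 6 lower, and the 21 beyond 50 Mb one of 0.70, with 17 higher and 2 lower.

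Gsc, the homeobox gene goosecoid of embryonic patterning, rose most among members at a mean of 5 CPM or more, a level it reached, like that of 1 CPM, only through shARF. It was 0.261, 0.205 and 0.680 CPM in shNT and 9.60, 10.1 and 10.7 CPM in shARF (log2 fold change 4.76 ± 0.33). Hif1a, the oxygen-regulated transcription factor and the most counted of the list, was 225, 240.1 and 219 CPM against 423, 415 and 449 (0.91 ± 0.04). In both genes the groups lay far apart, and the shARF libraries were close to one another.

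Mta1, of the NuRD deacetylase complex, rose from 111 ± 2.75 to 187 ± 6.37 CPM, and Irf2bpl from 104 ± 5.18 to 169.8 ± 1.53 CPM (SD, n = 3). Osr1, a zinc finger factor of mesoderm at 9.57 Mb, was 72.9, 79.3 and 80.5 CPM in shNT and 30.4, 29.8 and 30.02 in shARF (-1.37 ± 0.05). Id2, an inhibitor of basic helix-loop-helix factors at 25.1 Mb, was 33.8, 33.2 and 17.3 CPM against 12.9, 13.002 and 10.7 (-1.21 ± 0.25). The lowest shNT library of Id2 came near the shARF libraries, whereas those of Osr1 did not. Twist1 (-0.54), Etv1 (-1.63), Hbp1 (-0.47) and Hdac9 (-4.15), all transcriptional regulators between 31 and 39 Mb, fell too, and Ahr (0.71) and Meox2 (5.60) in that stretch rose. These 6 were named after their values were seen, and Meox2, at 0.0541 CPM in shNT, was a member only through shARF, as Hdac9, at 0.224 CPM in shARF, was only through shNT.

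Secreted and matrix genes numbered 15, with 10 called higher and 3 lower and a median of 0.42. Lamb1, a laminin chain of basement membranes, was 293, 283 and 285 CPM in shNT and 387, 381 and 391 in shARF (0.43 ± 0.02). Pxdn, the peroxidase that crosslinks collagen IV, was 282, 295 and 283 CPM against 385, 387 and 381 (0.42 ± 0.02). Fbln5, of elastic fibres, rose from 215 ± 2.74 to 262 ± 3.25 CPM (0.29). Each of these had its shARF libraries above all shNT libraries.

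Hhipl1, a secreted relative of the hedgehog-binding protein Hhip, was 16.01, 15.9 and 15.5 CPM in shNT and 60.1, 64.3 and 66.0 in shARF (2.00 ± 0.05). Tgfb3, the ligand TGF-beta 3, rose from 98.0 ± 1.13 to 223 ± 1.25 CPM (1.19), and the Notch ligand Jag2 fell from 3.98 ± 0.42 to 0.142 ± 0.10 CPM (-4.78), both named after their values were seen. Jag2 was a member only through shNT. The ligands on the chromosome thus moved in both directions. Of 7 receptors, channels and transporters, 3 were called higher and 2 lower, with a median of -0.19. So few calls lie near the shares of all genes at 1 CPM or more, 32.9% higher and 30.5% lower, and nothing is read from them. Itgb8, the integrin subunit that activates latent TGF-beta, was 9.99, 11.9 and 11.5 CPM against 45.5, 47.9 and 50.6 (2.11 ± 0.08). The zinc transporter gene Slc39a9 was 51.5, 51.5 and 47.2 CPM in shNT and 52.6, 15.9 and 53.2 in shARF, so that 1 library, shARF replicate 2, stood apart, and no difference was called (-0.30, and 0.08 without that replicate).

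Cytoskeleton, motor and related signalling genes numbered 28, with 17 called higher and 5 lower and a median of 0.42. Dync1h1, the heavy chain of cytoplasmic dynein, was 839, 805 and 819.96 CPM in shNT and 1335, 1356 and 1339 in shARF (0.71 ± 0.02). Actn1, the actin crosslinker alpha-actinin 1, was 451, 451 and 452 CPM against 719.8, 712 and 716 (0.67 ± 0.02). Crip2, a LIM domain protein, was 5.32, 6.67 and 9.77 CPM against 67.8, 65.8 and 67.1 (3.21 ± 0.21). Rock2, a kinase that promotes actomyosin contraction, rose from 245 ± 10.1 to 328 ± 9.08 CPM, and Clmn, a membrane protein with actin-binding domains, fell from 12.1 ± 0.93 to 2.91 ± 0.43 CPM (-2.05). The most counted motor and crosslinker genes of the chromosome were both higher in every shARF library.

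**Figure D5:**
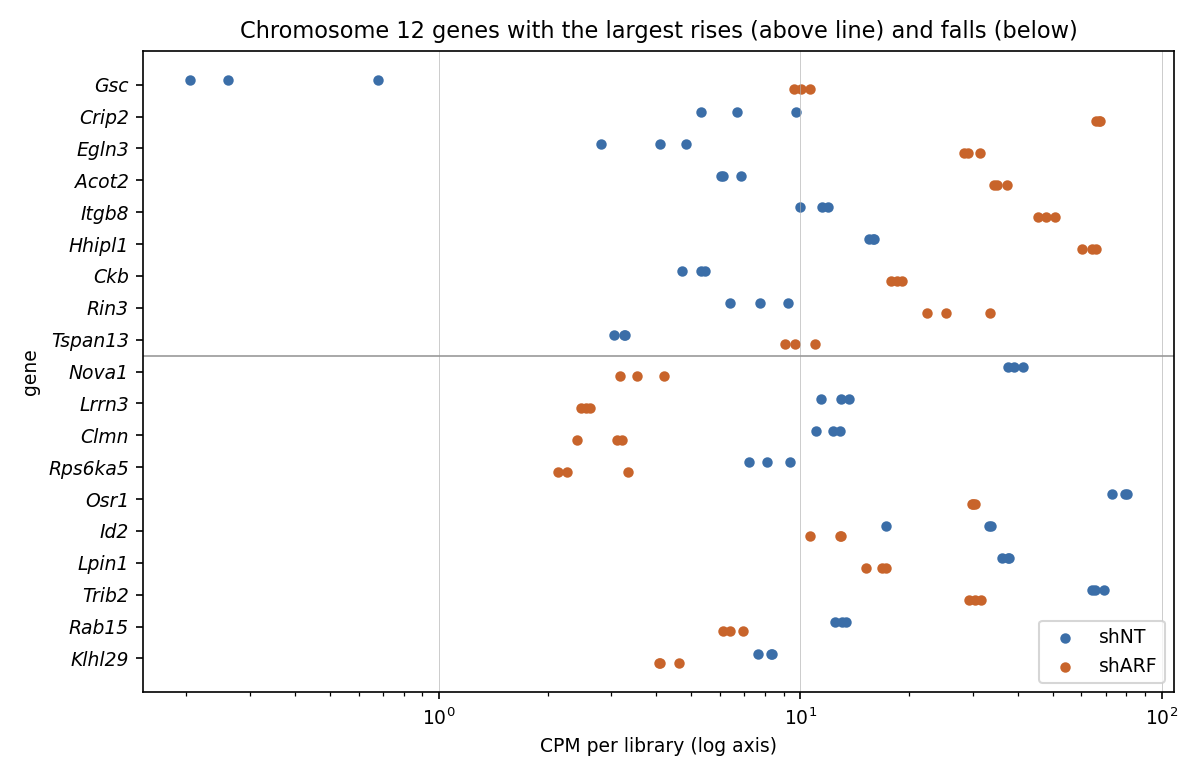
CPM per library on a log axis for chromosome 12 genes, namely 9 of the 10 most risen (above the line) and the 10 most fallen (below it) of the called genes at 5 CPM or more whose groups did not overlap; each point is 1 library, shNT in blue and shARF in orange. The rises reach from 1.63 (Tspan13) to 4.76 (Gsc) and the falls from -0.93 (Klhl29) to -3.43 (Nova1) on the log2 scale.

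Metabolic enzymes numbered 27, with 17 called higher and 2 lower and a median of 0.39. Odc1, the first enzyme of polyamine synthesis, was 145, 149 and 148 CPM in shNT and 229.8, 234 and 226 in shARF (0.64 ± 0.02). Rrm2, a subunit of ribonucleotide reductase, was 107, 104 and 106 CPM against 157, 152 and 149 (0.53 ± 0.03). Acot2, a mitochondrial acyl-CoA thioesterase, was 6.10, 6.86 and 6.05 CPM against 34.5, 35.1 and 37.3 (2.49 ± 0.07), with reads that may be shared with its near copy Acot1. Lpin1, the lipid phosphatase lipin 1, went the other way, at 37.5, 37.8 and 36.3 CPM against 16.9, 15.2 and 17.3 (-1.17 ± 0.06). The groups were apart for all 4 genes.

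Npc2, which carries cholesterol out of lysosomes, rose from 143 ± 4.88 to 186 ± 1.79 CPM. Ckb, brain creatine kinase, rose from 5.16 ± 0.39 to 18.5 ± 0.63 CPM (1.84). Egln3, a prolyl hydroxylase that acts on hypoxia-inducible factors, listed with signalling genes, was 4.08, 4.82 and 2.82 CPM in shNT and 28.3, 31.5 and 29.1 in shARF (2.92 ± 0.18). It lies at 54.2 Mb, and its groups were widely apart.

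Of 19 genes of translation, folding and degradation, 15 were called higher and 3 lower, with a median of 0.48. Hsp90aa1, the inducible cytosolic Hsp90 chaperone, was 461, 436 and 473 CPM in shNT and 631, 681 and 648 in shARF (0.52 ± 0.04). Eif5 (1.01), Eif2b2 (1.01), Eif2s1 (0.86) and Wars (1.19), of translation initiation and tRNA charging and all beyond 78 Mb, rose as well and were named after their values were seen. The 2 members of the list before 40 Mb both fell: Pdia6, an ER disulfide isomerase, was 319, 320.1 and 328 CPM against 273, 278 and 263 (-0.25 ± 0.03), and Rps7, a ribosomal protein gene with many near copies, was 302, 307 and 322 CPM against 292, 285 and 282 (-0.12 ± 0.03). The call of Rps7 was lost without shARF replicate 2 (-0.11) or 3 (-0.10).

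RNA processing genes numbered 22, with 18 called higher and 1 lower, and DNA repair, replication and division genes 21, with 14 higher and 1 lower. Ddx1, an RNA helicase, rose from 167 ± 6.92 to 193 ± 4.69 CPM, and Rbm25, a splicing factor, from 119.9 ± 9.03 to 149 ± 5.17 CPM. Zfp36l1, which promotes decay of AU-rich mRNAs, was the gene that fell (-0.74), named after its values were seen. Smc6, of the SMC5/6 repair complex, rose from 149 ± 3.38 to 169 ± 3.83 CPM, Nek9, a mitotic kinase, from 108 ± 1.64 to 158 ± 4.77 CPM, and Ncapg2, of condensin II, from 89.3 ± 2.03 to 129 ± 5.42 CPM. The 3 repair and division genes lie at 11.3, 85.3 and 116 Mb, and their log2 fold changes were 0.18, 0.55 and 0.53.

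Trafficking genes numbered 24, with 17 called higher and 2 lower and a median of 0.48. Rab10, a GTPase of exocytosis at 3.25 Mb, was 210.4, 202 and 203 CPM in shNT and 272, 272 and 274 in shARF (0.41 ± 0.02). Tmed10, a cargo receptor between ER and Golgi, rose from 162 ± 0.91 to 238 ± 6.41 CPM (0.55). Laptm4a, a lysosomal membrane protein gene at 8.92 Mb, was 292 ± 9.49 and 283 ± 0.82 CPM and was not called (-0.05). Rab10, near the start of the chromosome, thus differed about as much as the median member beyond 50 Mb, and its groups were apart.

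Signalling kinases, phosphatases and adaptors numbered 24, with 17 called higher and 3 lower and a median of 0.48. Akt1, the growth factor kinase, was 236, 235 and 239.7 CPM in shNT and 382, 379 and 369.95 in shARF (0.67 ± 0.02). Trib2, a pseudokinase at 15.8 Mb, was 65.4, 69.1 and 64.1 CPM against 30.5, 29.3 and 31.6 (-1.12 ± 0.05), and Rps6ka5, a kinase of the MAPK pathway at 100.5 Mb, was 8.08, 7.23 and 9.35 CPM against 2.14, 3.33 and 2.26 (-1.67 ± 0.19). Of the interferon-responsive genes listed, Ifi27 alone was a member, and it rose from 9.21 ± 0.11 to 17.3 ± 1.13 CPM (0.91).

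The 2 largest falls at 5 CPM or more lay between 40 and 50 Mb. Nova1, a neuronal splicing factor, was 41.4, 38.97 and 37.6 CPM in shNT and 3.17, 4.197 and 3.53 in shARF (-3.43 ± 0.11). Lrrn3, a leucine-rich repeat membrane protein, was 13.7, 12.9 and 11.4 CPM against 2.48, 2.55 and 2.62 (-2.31 ± 0.09). These 2 falls stood in a window whose median was above 0, with 10 of its 18 members above 0. In it 8 members (44.4%) were called higher and 6 (33.3%) lower, beside 32.9% and 30.5% of all genes at 1 CPM or more.

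Rin3, an activator of Rab5 GTPases, rose from 7.80 ± 1.44 to 27.1 ± 5.75 CPM (1.80), Tspan13, a tetraspanin, from 3.201 ± 0.12 to 9.92 ± 0.99 CPM (1.63) and Slc38a6, of an amino acid transporter family, from 5.77 ± 0.88 to 15.1 ± 1.53 CPM (1.38). Rab15, an endosomal GTPase, fell from 12.97 ± 0.45 to 6.49 ± 0.42 CPM (-0.999), and Klhl29, a Kelch-family gene at 5.08 Mb, from 8.10 ± 0.38 to 4.26 ± 0.31 CPM (-0.93). Of the 10 most risen genes at 5 CPM or more, 9 lay beyond 50 Mb and 1, Tspan13, before 40 Mb. Of the 10 most fallen, 5 lay before 40 Mb, 2 between 40 and 50 Mb and 3 beyond 50 Mb. Among these 20 genes, 8 had a group mean under 5 CPM and were named only through the other group.

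Of the whole series, total counts per library were 40261944 to 47023082. Cdkn2a, the hairpin's target on chromosome 4, was 231, 218 and 223 CPM in shNT and 95.6, 103 and 107 in shARF. All 12 fibroblast markers were at a mean of 1 CPM or more, with a summed level, mostly collagens and Fn1, of 22798 to 24566 CPM in shNT and 25934 to 26164 in shARF. Within this list Pdgfra fell from 502 to 91.4 CPM and Dcn from 198 to 45.5. All 5 mesothelial markers were at that level, summing to 104.6 to 108 CPM in shNT and 111 to 114 in shARF, but Msln fell from 84.2 to 54.4 CPM while Upk3b (0.0137 to 12.04), Wt1 (0.102 to 9.54) and Lrrn4 (0 to 8.91) rose from near 0. Of 7 epithelial markers 2 were at that level, and all 7 summed to 15.3 to 17.5 CPM in shNT and 7.05 to 7.73 in shARF. Krt18 fell from 12.7 to 0.150 CPM, while Cdh1 rose from 2.14 to 4.80. Krt14, under that level, was called too and rose from 0 to 1.91 CPM.

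The sums of the other marker lists were 2.40 to 2.99 CPM in shNT and 2.81 to 3.62 in shARF for 5 endothelial, 2.30 to 2.69 and 1.21 to 1.54 for 6 haematopoietic, 45.04 to 46.3 and 58.4 to 61.2 for 6 neural and 1.43 to 1.63 and 4.69 to 5.61 for 5 skeletal muscle genes. At 0 in all libraries were Cdh5, Adgre1, Cd3e, Hbb-bt, Sox2, Pax6, Rbfox3, Sox10, Myod1, Myog and Ckm. Called members of these lists were Map2 (44.8 to 58.8 CPM), Kdr (0.282 to 3.13), Tek (2.16 to 0.067), Cd68 (2.50 to 1.36) and Acta1 (1.56 to 5.26). Genes that mark the sex and body position of a culture differed as well: Xist was 387 and 45.7 CPM, the Y-linked Kdm5d 0.782 and 19.5, Hoxb9 103 and 6.41 and Hoxd13 25.6 and 127 in shNT and shARF. The other Y-linked genes listed were counted in both groups and higher in shARF: Ddx3y (24.4 and 85.3 CPM), Eif2s3y (12.8 and 38.3) and Uty (9.61 and 21.7). Hoxc8 was 61.7 and 4.89 CPM, while Hoxa13 (16.7 and 14.5) was not called. The part of these genes in the values of chromosome 12 was not tested.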

How the data were processed

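The authors deposited whole-number counts per gene in 54752 rows of Ensembl IDs. Build GRCm38 and, with no role given, StringTie 1.3.2, HISAT2 2.1.0, DESeq2 1.34.0, Picard 2.13.2, Trim Galore 0.4.1 and SAMtools 0.1.19 are listed per the submitters' processing notes. Per the labels' protocols the library kit was stranded; its strand setting in counting, the annotation release and duplicate removal were not given in the sources used here. Should strand have been ignored, reads of overlapping genes mix: 131 members share exon bases with a gene on the other strand and 43 with one on the same strand. The table held 6 further columns that match no sample and were not used. The index numbers of the shARF columns differ from the titles, so columns were matched on group and replicate.

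IDs were matched to GENCODE M21 with versions ignored (54723 of 54752; 53861 exactly). CPM were scaled by TMM factors. Counts were fitted with group as the sole term by the quasi-likelihood test of edgeR 4.0.16 (R 4.3.3; filterByExpr, minimum count 10 and minimum total 15; prior count 0.125; Benjamini-Hochberg over 17128 genes, threshold 0.05), two-sided. Library deviations used log2(CPM + 0.5). The fit was also run on simulated counts in which few genes changed, equally in both directions. That setting held no shift of a whole chromosome and says nothing about the shift described here. Windows of 10 Mb were set by gene start. An SD over 3 libraries can lie under counting error.

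Genes were named by rule: among called members at 5 CPM or more with groups apart and a symbol that is no predicted model, the 10 largest rises and 10 largest falls; the 3 highest of each role list; the member at 10 CPM or more nearest each window's median; the 2 genes on either side of 1 CPM; and Cdkn2a. Of the genes the rule names, 2 are not reported here. Members, lists and rules were chosen with earlier results of these data known. Alternatives were DESeq2 1.42.0, voom of limma 3.58.1, other scalings, filters and floors, a block on replicate number, other member sets and each library left out.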

Additional observations from a re-analysis of the deposited data

How the results depend on the processing

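Over 15 fits of all genes and the other member sets, the main results, the window medians and 68 named genes were followed. No followed value that was called changed sign. Signs changed in 4 genes that were not called: with library sizes alone Pum2 (-0.03) and Gm19605 (-0.03), without shARF replicate 2 Slc39a9 (0.08), without shARF replicate 1 Gen1 (-0.01) and Gm19605 (-0.04), and without shNT replicate 2 Gm19605 (-0.04). The members' median less that of genes off the chromosome, 0.33, was 0.31 with members at 0.5 CPM or more (557 genes), 0.39 at 5 CPM or more (373), 0.38 for protein-coding members and 0.31 for the 330 members that share no exon base. The last of these sets was added after seeing the data, as were the set without 7SL copies and the difference between the 2 ends of the chromosome. That difference, 0.31, was 0.28 at 0.5 CPM or more and also 0.28 at 5 CPM or more. At 5 CPM or more 39 members were called lower and 42 had every shARF library below every shNT library; without shared exon bases 185 were called higher. These counts come from fewer genes. The share of counts in shARF was 5.38% at 5 CPM or more; shares were 2.11% and 2.62% for protein-coding members and 2.23% and 2.77% without Rn7s1, Rn7s2 and Gm47299 in shNT and shARF. With 1 library left out in turn, the shift was 0.32 to 0.34, the difference between the ends 0.28 to 0.34, the members called 255 to 265 higher and 53 to 58 lower, those apart 312 to 317 and 75 to 81, and the shares 4.29% to 4.37% and 5.40% to 5.42%; all 12 window medians stayed above the median off the chromosome (100%). Scaling by library sizes alone lowered the median of all genes by 0.09 and gave 241 called higher and 80 lower. Same-numbered libraries did not deviate together (r -0.09, -0.02 and 0.006 over genes). Such correlations cannot show whether same-numbered samples were handled together, and the titles do not say. With a replicate block the shift was 0.33, with 260 called higher and 57 lower. Of 68 named genes, 7 changed call under some setting, among them Rps7, Laptm4a, Ywhaq, Gemin2, Sel1l and A530016L24Rik; Laptm4a was called at -0.08 without shNT replicate 1, Sel1l at 0.33 with the replicate block, and A530016L24Rik was lost at -0.60 without shNT replicate 2 and -0.61 without shARF replicate 3. The causes were not tested. At 40261944 to 47023082 counts per library, members near 1 CPM rest on 40 to 47 counts a library before scaling.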
